A study of Homo sapiens with 12 samples.

Results

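Parental MIAPaCa2 cells were treated with oxamate, an inhibitor of lactate dehydrogenase A, and open chromatin was compared between 3 treated and 3 untreated libraries. These 6 samples are part of 12 in the series, and they were chosen by the parental phenotype in the sample titles. MIAPaCa2 is an established human pancreatic ductal adenocarcinoma line. The assay was ATAC-seq, which uses the transposase Tn5 to cut accessible DNA and to attach sequencing adapters at the cuts. The untreated group was parental cells without inhibitor, kept in vehicle per the methods of the study, and the treated group was the same line after a day in a millimolar dose of sodium oxamate. The other 6 libraries came from cells selected for resistance by weeks of culture in oxamate, a polyclonal population, in 3 untreated and 3 treated libraries, and they had no part in choosing the lost, gained and shared regions of the parental cells. All 12 libraries derived from this 1 line. No source states that replicates came from separate cultures, so p-values measure only the spread between these libraries, which may be technical.

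Lactate dehydrogenase converts pyruvate to lactate and restores the NAD+ that glycolysis uses. The LDHA subunit is abundant in many tumours, and oxamate competes with pyruvate for the enzyme. ATAC-seq peaks mark DNA free of packed nucleosomes. Starts of active genes, often rich in CpG dinucleotides, are open in most cell types, whereas enhancers inside and between genes differ more from one cell state to the next.

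The peaks of the 6 parental lists were merged wherever they overlapped by at least 1 bp, which gave 140283 regions on chromosomes 1 to 22 and X. A region was called lost when 3 of 3 untreated and 0 of 3 treated libraries had a peak in it, and gained in the reverse case. By this rule 1695 regions were lost, which is 1.21% of all merged regions, and 205 were gained, which is 0.146%. A further 26012 regions had a peak in 6 of 6 libraries and are called shared. These counts come from the rule itself and are a description. Just outside the thresholds lay 3326 regions called in 3 untreated and 1 treated library and 4478 called in 2 untreated and 0 treated libraries, against 471 in 1 untreated and 3 treated and 1537 in 0 untreated and 2 treated libraries. Lost regions outnumbered gained ones under each alternative that was run. Without treated library 1, 2380 regions were lost and 1065 gained, and in 1-kb windows 886 were lost and 11 gained.

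The libraries differed in more than their peaks. The untreated lists held between 60361 and 62068 peaks and the treated lists 46401, 63259 and 55879, so treated library 1 was the shortest list. The background pileup recovered from each list was 0.883, 0.778 and 0.892 fragments in untreated and 0.748, 1.32 and 1.29 fragments in treated libraries. Relative depth derived from it was 1.00 to 1.33 in untreated and 1.25 to 2.07 in treated libraries, and the groups overlapped (two-sided exact permutation p = 0.2). The smallest peak width, taken here as the fragment length, was 75 to 87 bp in untreated and 67 to 81 bp in treated libraries. These also overlapped (exact permutation p = 0.2). The part of depth and smallest width in the differences below was not tested. The ends of the keratin genes KRT8 and KRT18 and of the vimentin gene VIM had a peak in 6 of 6 libraries. Of 15 markers of blood, endothelium, acinar, islet and liver cells, 11 had an end peak in 0 of 3 untreated libraries, and PTPRC, CD3E, CD79A, INS and ALB had none in any of the 6. SPI1 and APOA1 had an end peak in all 6 libraries, so these 2 markers of other cell types were not absent.

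To show the sequence near kept and near lost regions, the 250 bases upstream of the RefSeq start are given for 6 genes on GRCh38.p14, 5′ to 3′ on the strand of the gene, with CpG dinucleotides in capitals. LDHA, the target, and MARS1, the methionyl-tRNA synthetase, kept a start peak in 3 of 3 untreated and 3 of 3 treated libraries. ARTN, TMEM31, CHST3 and SYN2 had a lost region within 1 kb of the start. Counting any peak within 1 kb of the start, TMEM31 and SYN2 went from 3 untreated to 0 treated libraries, ARTN from 2 to 0 and CHST3 from 3 to 1.
LDHA (chr11:18394313-18394562, plus strand): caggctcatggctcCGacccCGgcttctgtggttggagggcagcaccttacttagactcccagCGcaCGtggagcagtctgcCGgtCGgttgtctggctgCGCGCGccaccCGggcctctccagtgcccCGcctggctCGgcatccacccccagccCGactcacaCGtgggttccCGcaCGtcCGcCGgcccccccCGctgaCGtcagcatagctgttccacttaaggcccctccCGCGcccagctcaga
MARS1 (chr12:57487818-57488067, plus strand): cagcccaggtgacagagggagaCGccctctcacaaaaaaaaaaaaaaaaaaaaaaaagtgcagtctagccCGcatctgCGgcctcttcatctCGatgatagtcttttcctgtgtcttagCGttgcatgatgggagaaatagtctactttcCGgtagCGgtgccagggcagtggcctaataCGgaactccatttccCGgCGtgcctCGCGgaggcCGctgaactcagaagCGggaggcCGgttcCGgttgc
ARTN (chr1:43933551-43933800, plus strand): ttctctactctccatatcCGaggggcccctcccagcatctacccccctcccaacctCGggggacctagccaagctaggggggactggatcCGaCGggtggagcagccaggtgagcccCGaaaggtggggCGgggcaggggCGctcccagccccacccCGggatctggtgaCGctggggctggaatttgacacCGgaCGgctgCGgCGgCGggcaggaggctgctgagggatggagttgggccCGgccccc
TMEM31 (chrX:103710659-103710908, plus strand): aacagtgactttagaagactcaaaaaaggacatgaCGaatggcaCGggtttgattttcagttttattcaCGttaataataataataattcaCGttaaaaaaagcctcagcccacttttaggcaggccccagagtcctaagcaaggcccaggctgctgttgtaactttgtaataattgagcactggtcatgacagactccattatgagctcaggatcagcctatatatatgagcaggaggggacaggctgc
CHST3 (chr10:71964145-71964394, plus strand): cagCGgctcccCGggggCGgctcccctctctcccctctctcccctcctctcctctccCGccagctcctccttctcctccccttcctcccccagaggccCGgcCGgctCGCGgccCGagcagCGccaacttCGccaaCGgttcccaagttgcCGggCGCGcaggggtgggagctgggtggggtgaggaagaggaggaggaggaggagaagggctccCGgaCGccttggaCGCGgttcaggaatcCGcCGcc
SYN2 (chr3:12004138-12004387, plus strand): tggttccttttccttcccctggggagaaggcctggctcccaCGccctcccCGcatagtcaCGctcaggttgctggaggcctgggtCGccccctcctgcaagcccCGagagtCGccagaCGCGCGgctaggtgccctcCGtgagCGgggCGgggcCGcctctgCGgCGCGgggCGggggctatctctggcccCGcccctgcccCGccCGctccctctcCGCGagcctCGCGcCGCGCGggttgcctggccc
The LDHA window held 22 CpGs at a GC content of 69.6%. The SYN2 window held 27 CpGs at 75.6% and was no poorer in them. TMEM31, with 4 CpGs at 42.4%, stood at the other extreme. The LDHA window carried the E-box CACGTG and the cAMP response element TGACGTCA, and neither sequence occurred in the ARTN, TMEM31, CHST3 or SYN2 window. Both were also absent from the window of MARS1, whose start was kept, with 16 CpGs at 53.6%. These 2 sequences thus did not separate kept from lost starts among the 6 genes. A match is a run of letters and not a bound site.

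Across all 15811 coding genes with a RefSeq promoter, the windows of lost starts lay between those of kept and of closed starts in CpG number and in the share with a GC box, and below both in the share with a CCAAT box. A start peak within 1 kb was present in 6 of 6 libraries at 8941 genes and in 0 of 6 at 4957. At 82 genes it was present in 3 untreated and 0 treated libraries. The median number of CpGs in the 250 upstream bases was 22 (quartiles 16 and 29) at kept starts, 16 (quartiles 6 and 26) at lost starts and 4 (quartiles 2 and 12) at closed starts. The GC box GGGCGG, searched on both strands, was found in 71.3% of kept, 54.9% of lost (exact 95% interval 43.5 to 65.9) and 29.2% of closed windows, and in 56.0% of all. The ETS element CCGGAAG was found in 18.1% of kept and 3.66% of lost windows (exact 95% interval 0.761 to 10.3), beside 2.97% of closed and 11.8% of all windows. The CCAAT box was found in 36.6% of kept, 20.7% of lost (exact 95% interval 12.6 to 31.1), 33.8% of closed and 34.4% of all windows. The core ACGTG of the hypoxia response element, which the E-box CACGTG contains, was found in 24.4% of kept, 9.76% of lost (exact 95% interval 4.31 to 18.3), 15.6% of closed and 20.8% of all windows, so the interval of lost starts holds the value of closed ones. The AP-1 element TGANTCA occurred in 3.06% of kept, 7.32% of lost, 8.17% of closed and 5.05% of all windows. TATAAA occurred in 4.57%, 8.54%, 17.8% and 9.25% of them in the same order, CACGTG in 9.28%, 6.10%, 5.27% and 7.83%, and TGACGTCA in 3.28%, 0 of 82, 1.03% and 2.32%, where 0 of 82 allows a share of up to 4.40% (exact 95% interval). Starts with a peak in 3 untreated and 1 or 2 treated libraries numbered 545. They held the ETS element at 5.32% and the CCAAT box at 21.5%, close to the lost starts. Their median of 20 CpGs and their shares with the GC box (67.7%) and CACGTG (8.07%) were nearer the kept starts. ACGTG, at 18.5%, and the AP-1 element, at 5.69%, lay between lost and kept starts. The intervals cover counting error only. Kept and lost starts also differed in peak strength. Of 8975 coding-start regions called in 3 of 3 untreated libraries, 7638 ranked in the strongest 40% of the lists. Of the 106 lost ones, 105 ranked beyond it. Windows of kept and lost starts of equal rank were not compared.

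Lost regions were mostly weak peaks, and fewer of them lay at gene ends than of regions called in 3 of 3 untreated libraries. Of the 1695, 330 (19.5%) lay within 1 kb of an end of any gene, 769 (45.4%) lay inside a protein-coding gene over 1 kb from any end, and 464 (27.4%) lay outside genes. Regions called in 3 of 3 untreated libraries, 36054 in all, lay at a gene end in 40.7% and inside a coding gene in 29.8%. Over all 140283 merged regions, 18.3% lay at a gene end, 41.7% inside a coding gene and 32.1% outside genes. The lost regions were close to these shares. The median width of a lost region was 333 bp, against 718 bp for a shared region. Their median rank by −log10 q in the untreated lists was 62.5% of the way down the list, and 82.2% of them ranked in the weaker part of the list, below the 50% mark. Absence here means that no peak passed the threshold of the authors' peak caller. When the lists were restricted to −log10 q of 3 or more, 1903 regions were lost, and 136 of these (7.15%) overlapped the 1695.

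The share of regions lost was higher where the untreated peak was weaker, and in each 10% step of the ranks up to the 70% mark it was lower at coding starts than inside genes. Of regions in the strongest 40% of the lists, 86 of 22966 (0.374%) were lost, and beyond that rank 1609 of 13088 (12.3%). At coding starts the strongest 40% lost 1 of 7638 regions (0.0131%, exact 95% interval 0.000331 to 0.0729). Inside coding genes they lost 50 of 5741 (0.871%, exact 95% interval 0.647 to 1.15) and outside genes 12 of 4636 (0.259%, exact 95% interval 0.134 to 0.452). Between the 50% and 60% ranks the share was 6.96% at starts, 12.9% inside genes and 10.3% outside, with intervals of 4.64 to 9.96, 11.3 to 14.7 and 8.65 to 12.2. The intervals of starts and gene interiors overlapped between the 10% and 30% ranks and from the 60% rank on. Regions on a chromosome are not independent samples, and the intervals cover counting error only.

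**Figure D1:**
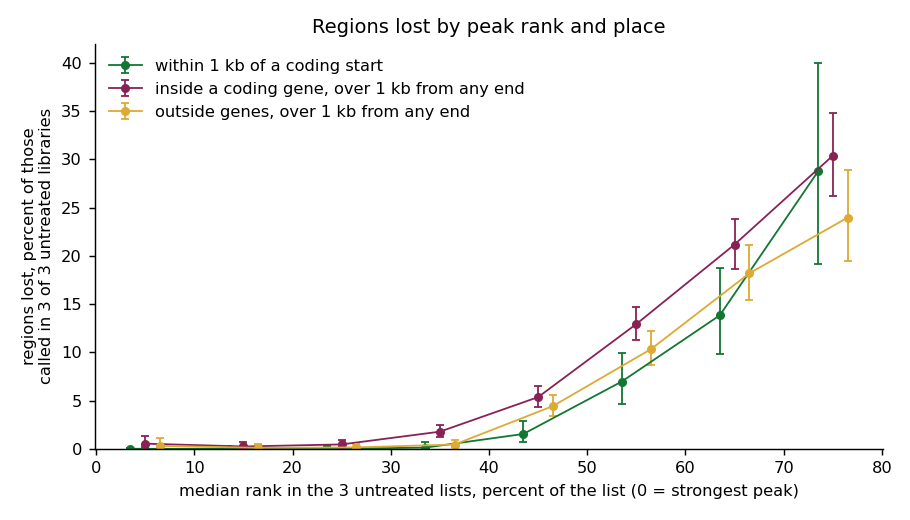
Share of regions called in 3 of 3 untreated libraries that had no peak in any treated library (vertical axis, percent) by the median rank of the peak in the untreated lists (horizontal axis, percent of the list), for coding starts, gene interiors and regions outside genes; bars are exact 95% binomial intervals and points are offset sideways. Up to the 40% rank few regions were lost, 1 of 7638 at starts, and the share then climbed to 28.8% at starts and 30.4% inside genes between the 70% and 80% ranks.

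At gene ends, 229 of 19970 coding genes had a lost region within 1 kb, which is 1.15%. At 96 of these 229 genes a shared region lay at an end as well, and 94 had no end peak left in any treated library. Counted by gene and not by region, 11984 genes had an end peak in 3 of 3 untreated libraries. Of those, 11023 had one in 3 of 3 treated libraries and 120 in 0 of 3, while 4 genes went the other way. Among the 120, named here after their values were seen, were the homeobox genes CDX2 and MEIS1, the interferon regulatory factor gene IRF7, the DNA-sensing adaptor gene STING1 and SNAP25, a gene of synaptic vesicle release. In the resistant lists, 59 of the 120 had an end peak in all 6 libraries and 1 in none.

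The 10 strongest lost regions at coding gene ends ranked between the 35.7% and 44.0% marks of the untreated lists. The first was at ARTN, which encodes artemin, a ligand of the GDNF family. It covered chr1:43934298-43935157, 497 bp downstream of the start whose upstream bases are printed above, with folds over background of 4.77, 5.08 and 3.61 in the 3 untreated libraries. The peak at CHST3, a chondroitin sulfotransferase gene, lay 542 bp inside the gene at chr10:71964937-71965380 with folds of 4.35, 3.67 and 4.87. SYN2, which encodes the synaptic vesicle protein synapsin II, lost a peak on the start itself, at chr3:12004231-12004604, with folds of 4.46, 5.33 and 4.84. At TMEM31 the folds were 5.22, 5.50 and 4.32 at chrX:103711423-103711843, 514 bp downstream of the start. Each of these 4 regions overlapped a peak in 6 of 6 resistant libraries.

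The other 6 lay at far ends or at ends whose strand the RefSeq promoter table does not give. DDX5, an RNA helicase gene, lost a peak 222 bp from its far end with folds of 3.34, 2.59 and 2.98, while its start kept a peak in all 6 libraries. The DNAJC9 region, 741 bp from the far end of a histone co-chaperone gene, had folds of 4.54, 5.36 and 4.88 and also lay inside FAM149B1. RDH5, a retinol dehydrogenase gene, had folds of 3.96, 4.12 and 4.48 in a peak 17 bp from its far end that also lay inside CD63. The peaks at EMID1, INPP5J and CCDC194 had folds between 4.04 and 5.72 in every untreated library. Reads at overlapping genes cannot be assigned to either of them.

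Inside genes some lost peaks had higher folds than these 10 at gene ends, which reached 5.72. At PCSK5, RASA2, ACTR3 and THEMIS the fold was above that in each untreated library, and at the other 6 it was not. PCSK5, a proprotein convertase gene, held a 317-bp region at chr9:76302892-76303208 with folds of 20.3, 10.3 and 31.2 in the untreated libraries. It ranked at the 0.391%, 6.00% and 0.190% marks of the 3 lists. No treated library had a peak there, and 2 untreated and 2 treated resistant libraries did. RASA2, which encodes a GTPase-activating protein for RAS, lost a peak at chr3:141576439-141576962 with folds of 6.50, 14.5 and 14.7. All 6 resistant libraries had a peak in that region. STARD3NL had folds of 11.9, 5.30 and 10.2 at chr7:38222466-38222735, and CD44, the hyaluronan receptor gene, 12.4, 5.51 and 4.84 at chr11:35225024-35225677.

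Some of these peaks had the same width in every untreated library. The ACTR3 peak, in a gene of the ARP2/3 actin complex, was 109 bp wide in each untreated library with folds of 7.66, 12.2 and 10.5. The peak in DDC, the aromatic amino acid decarboxylase gene, was 324 bp in each with folds of 5.26, 8.72 and 8.38. The peak in THEMIS, a T cell gene, was 323 bp in each with folds of 7.70, 9.84 and 10.8. Over the whole lists, identical peaks numbered 326 to 393 in pairs of untreated libraries and 285 to 332 in pairs of treated ones. Between an untreated and a treated library they numbered 245 to 359. Whether reads from other copies of these sequences add to the ACTR3, DDC and THEMIS peaks was not tested. CRCP, MMS22L and SLC25A28 closed the list of 10 with folds between 3.74 and 7.32, and each overlapped a peak in 6 of 6 resistant libraries. Outside genes, the strongest lost region was chrX:115330359-115330701, 22796 bp from LUZP4, with folds of 18.6, 13.1 and 9.69. Another lay 2981 bp from IL1RN, the interleukin 1 receptor antagonist gene, with folds of 5.04, 7.30 and 7.74, and the third, at chr2:18377893-18378284, had folds of 6.59, 5.02 and 7.58.

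**Figure D2:**
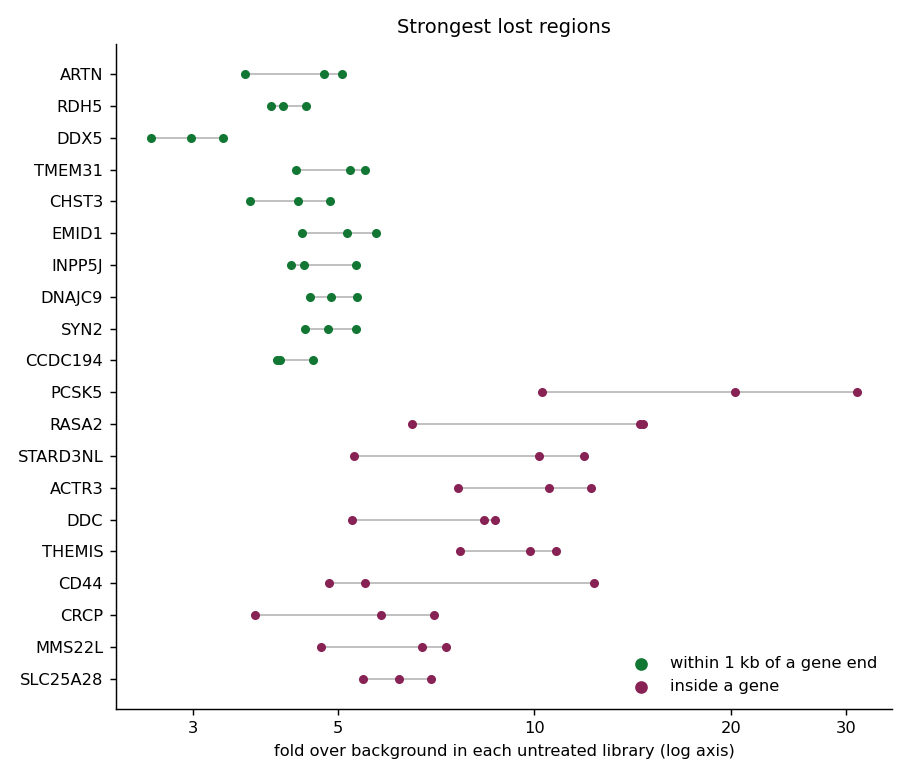
Fold over background (horizontal log axis) of the 10 strongest lost regions at coding gene ends and the 10 inside coding genes, 1 point for each of the 3 untreated libraries, joined by a grey line; no treated library had a peak in these regions. Folds at gene ends stayed between 2.59 and 5.72, while PCSK5 reached 31.2.

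LDHA itself kept its start peak. Its width was 753, 680 and 528 bp in untreated and 556, 568 and 523 bp in treated libraries, and the groups overlapped. Its folds were 5.08, 6.45 and 5.99 in untreated and 4.99, 5.73 and 4.92 in treated libraries, and these overlapped too. At the far end of LDHA a peak was present in 3 of 3 untreated libraries and in treated library 1 only, 257 bp wide there. LDHC, the testis subunit next to LDHA, had a start peak in all 6 libraries, 287 to 359 bp wide in untreated and 174 to 293 bp in treated libraries. LDHB, the heart-type subunit, had a start peak in treated library 3 only, 105 bp wide. The MARS1 start peak was 512, 677 and 434 bp wide in untreated and 295, 325 and 621 bp in treated libraries. Its far end had a peak of 1604, 264 and 762 bp in untreated libraries and a peak in treated library 2 only, 737 bp wide. FAR2, a fatty acyl-CoA reductase gene, had a start peak of 430, 743 and 114 bp in untreated libraries and of 108, 0 and 512 bp in treated ones, where 0 means that no peak was called.

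Among 490 genes in 27 lists of pathways and gene families, 35 genes (7.14%) held a lost region somewhere in their span, beside 926 of all coding genes, which is 4.64%. The listed genes were chosen for this tissue and are not a random draw. Lost regions made up 4.37% of the regions called in 3 of 3 untreated libraries in the spans of the listed genes and 4.01% over all coding genes, so the listed genes were close to the background in this measure. At an end, 9 listed genes had a lost region and 0 a gained one. The list of axon guidance and neuronal adhesion genes held the most, with a lost region in the span of 7 of its 25 genes. Lost regions were 7 of the 42 untreated regions in those spans (16.7%).

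NRP2, a receptor for semaphorins, lost the peak on its start at chr2:205682313-205682756, which had folds of 4.93, 5.06 and 3.49. NTN4, the gene of the guidance cue netrin 4, lost a peak 396 bp inside the start with folds of 3.46, 4.46 and 3.60. Both genes had no end peak in any treated library and one in 6 of 6 resistant libraries. PLXNA2, a plexin gene, lost a peak 128 bp beyond its far end with folds of 3.76, 3.45 and 3.70, while a shared region remained at its other end. Inside SLIT3, PLXNA4, CNTNAP2 and NTN1, also of this list, the lost peaks had folds between 3.27 and 5.21.

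MYCN, of the MYC family of transcription factors, lost the peak 329 bp upstream of its start with folds of 3.58, 3.93 and 3.64, and MYC itself kept a shared region of 1220 to 1414 bp in untreated and 1116 to 1315 bp in treated libraries. ATF3, a stress-induced factor, had no peak at the RefSeq start used here in any parental library. It lost a peak 416 bp beyond its far end with folds of 2.72, 2.59 and 2.89. The span of ATF3 itself held 4 regions called in 3 of 3 untreated libraries, and 0 of these were lost. GLUL, the glutamine synthetase gene, lost a peak over its start with folds of 3.47, 3.43 and 3.25, and an end peak remained in 1 of 3 treated libraries. These were weak calls, with median ranks in the untreated lists of 65.8% at MYCN, 86.2% at ATF3 and 82.1% at GLUL. The −log10 q values were 1.37, 1.30 and 1.68 at ATF3 and 1.72, 1.66 and 1.36 at GLUL, where the smallest deposited value was 1.00. HDAC1, FGFR1 and RPS2 each lost a side region near an end that kept a peak in 3 of 3 treated libraries. The RPS2 region, 539 bp from that gene, lay inside NDUFB10 and 456 bp from an end of NDUFB10. At HDAC1, a histone deacetylase gene, the side region was 717 bp upstream of the start and had folds of 3.38, 3.75 and 3.83.

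In the lists of glycolysis and lactate transport, 2 of 20 and 1 of 7 genes held a lost region in the span, beside 4.64% of all coding genes. PFKL and PGK1 of glycolysis held 1 each, with folds of 3.31, 2.79 and 2.94 at PFKL, the liver phosphofructokinase gene, and 3.66, 3.78 and 4.20 at PGK1, the phosphoglycerate kinase gene. SLC16A1, the lactate transporter gene, held 1 in its span and kept a shared region at an end. None of the 7 lactate dehydrogenase genes, the 30 genes of pyruvate entry and the citric acid cycle or the 18 hypoxia genes held a lost region in the span, where 4.64% is the share over all coding genes. All 30 genes of pyruvate entry and the citric acid cycle had an end peak in 6 of 6 libraries, as did all 20 aminoacyl-tRNA synthetase genes and all 24 ribosomal protein genes, beside 11023 of all 19970 coding genes. Lipid genes with a lost region in the span were SREBF1, with 2, and ACACA, with 1. Of receptor tyrosine kinase genes, IGF1R held 2 and EPHA2, INSR and FGFR1 held 1 each.

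Lost regions were spread along the genome with few clusters. They fell into 1038 bins of 1 Mb, and 1289 of 1695 had no other lost region within 100 kb. Runs of at least 4 lost regions with neighbours within 100 kb numbered 8 and held 35 regions. The largest, at chr11:196855-489444, held 6 of the 22 untreated regions of that span, in or beside CIMAP1A, PGGHG, IFITM3, PKP3 and PTDSS2, among 16 coding genes there. The next, at chr12:109853231-110039487, held 5 of 12 untreated regions around GLTP and ANKRD13A. A stretch without coding genes at chr4:176838694-176988519 lost 4 of 8. The runs at chr1:6359366-6496764, with ACOT7, TNFRSF25 and PLEKHG5, and at chr14:74479090-74649979, with LTBP2 and SYNDIG1L, lost 4 of 13 and 4 of 12. These runs depended on the settings: with neighbours within 50 kb 4 regions lay in runs, and with 200 kb 90. Leaving out a library, which loosens the rule for a lost region, raised the number of regions in runs to between 87 and 424.

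By gene, 859 coding genes held 1 lost region in their span, 61 held 2, 5 held 3 and 1 held 4. ANKRD11, a chromatin regulator gene, lost 4 of its 15 untreated regions. PALM2AKAP2 lost 3 of 3, ANKRD13A 3 of 4, SLC39A14, a zinc and iron transporter gene, 3 of 4, GSE1 3 of 24 and CAMTA1 3 of 30. CTNNA3, an alpha-catenin gene, and GRIN2B, a glutamate receptor subunit gene, each lost 2 of 2. By chromosome, the share of untreated regions lost lay between 3.57% on chromosome 21 (exact 95% interval 2.05 to 5.74) and 6.64% on chromosome 4 (exact 95% interval 5.22 to 8.30), beside 4.70% overall. The median distance of a lost region from the nearest shared region was 18.3 kb, and 10.0% lay within 2 kb of one.

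Gained regions were few and lay mostly far from genes. Of the 205, 152 (74.1%) lay outside genes over 1 kb from any end, and 123 (60.0%) lay over 100 kb from any gene end, beside 1.53% of lost and 4.35% of shared regions. The 8 fullest bins of 1 Mb held 71 gained regions (34.6%). They lay at 122, 123 and 124 Mb of chromosome 1, 40 and 41 Mb of chromosome 10, 16 and 17 Mb of chromosome 13 and 49 Mb of chromosome 5, and the RefSeq table placed no gene of any kind in them. In GRCh38 these stretches are filled with modelled centromere sequence, made of near-identical repeats, so the place of a read among copies is uncertain. Peaks on unplaced contigs also made up more of the treated lists, 1.12% against 0.713% on average, and their part in the gained regions was not tested. In 1-kb windows 11 windows were gained.

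Near genes, 3 of 19970 coding genes had a gained region within 1 kb of an end, which is 0.0150%, and 38 held one in their span, which is 0.190%. The end regions were at MVB12A, SUN2 and PIGP with folds between 2.75 and 3.75, all in the weaker part of the lists by median rank. Inside genes, the strongest lay in ADARB2, an RNA-editing family gene, with folds of 3.40, 4.15 and 3.90 in the treated libraries, and in CSF2RA, a cytokine receptor gene, with folds of 3.78, 3.71 and 3.45. VIM, the intermediate filament gene vimentin, gained a 213-bp region at chr10:17231386-17231598, 3145 bp downstream of its start, with folds of 3.57, 2.75 and 3.30. No resistant library had a peak there. ATOSB and TNFAIP8L1 had folds between 2.92 and 3.37. SCD, the stearoyl-CoA desaturase gene, TFEB, a lysosomal transcription factor gene, and TJP1, a tight junction gene, also gained a region, with folds of 3.90, 3.15 and 3.25, of 3.50, 3.57 and 3.19 and of 4.00, 4.39 and 3.67. The 3 strongest gained regions outside genes, at chr17:26101544-26101634, chr4:49096163-49096253 and chr10:38899873-38899965, were at most 93 bp wide with folds of 2.82 to 13.2, and 0 of 6 resistant libraries had a peak in them.

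Shared regions were narrower after oxamate. The median summed peak width over the 26012 shared regions was 574, 583 and 476 bp in untreated and 352, 436 and 416 bp in treated libraries. All 3 treated libraries lay below all 3 untreated ones, with means of 544 ± 59.3 bp and 401 ± 44.2 bp (SD, n = 3 each). The difference was −143 bp (two-sided exact permutation p = 0.1, and 0.188 after adjustment for 15 tests). With 3 libraries in each group no smaller p is possible. Divided by the smallest width of each list, the treated libraries still lay below the untreated ones without overlap, at 5.25, 6.14 and 5.14 against 6.67, 6.70 and 6.35. The median fold in these regions was 5.73, 6.23 and 5.58 in untreated and 4.98, 4.96 and 4.56 in treated libraries, again with no overlap (exact permutation p = 0.1, adjusted p = 0.188). The bases covered by all peaks were 25.0, 25.5 and 20.7 Mb in untreated and 13.8, 19.4 and 18.3 Mb in treated libraries (exact permutation p = 0.1, adjusted p = 0.188).

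The narrowing was present in every class of place. At coding starts the median width fell from 836 ± 80.2 to 649 ± 54.6 bp (SD, n = 3 each), inside genes from 394 ± 54.9 to 282 ± 27.6 bp and outside genes from 360 ± 36.9 to 278 ± 32.1 bp, each without overlap between groups and with the smallest p the design allows (exact permutation p = 0.1). As a ratio per region, the median change was −20.0% at starts, −26.1% inside genes and −21.1% outside. Peaks per shared region numbered 1.02, 1.02 and 1.07 in untreated and 1.10, 1.08 and 1.06 in treated libraries. The groups overlapped (exact permutation p = 0.2). Shared regions holding several peaks made up 2.33%, 2.21% and 6.42% in untreated and 9.10%, 7.66% and 5.27% in treated libraries. With n = 3 each, the test cannot exclude a rise in splitting. Over single regions, 7448 of 26012 (28.6%) were narrower in each treated library than in every untreated one, and 209 (0.803%) were wider. To set each region against the typical width of its library, widths were also divided by the median of the library. Then 1582 (6.08%) were narrower and 4264 (16.4%) wider, so the balance of directions depends on this scaling.

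**Figure D3:**
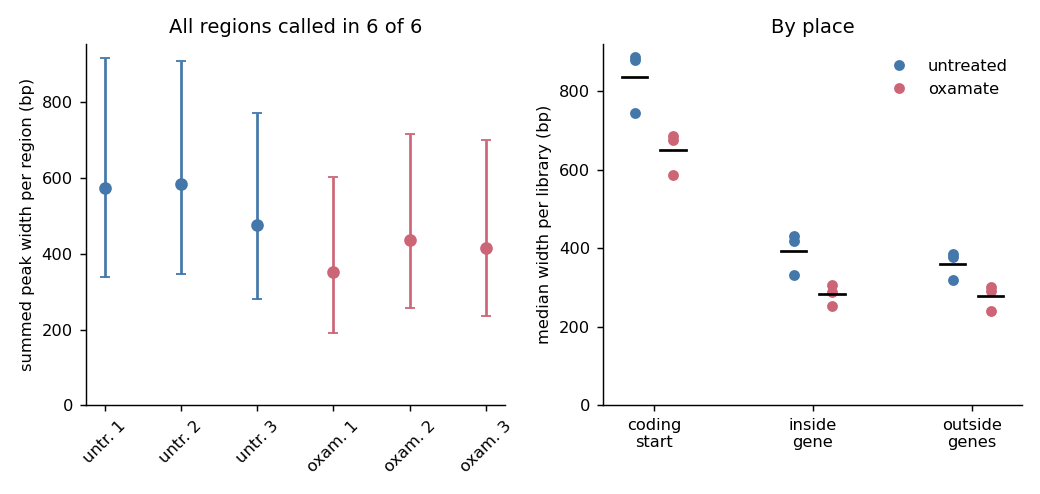
Left, median summed peak width per library over the 26012 regions called in all 6 libraries (bp), with lower and upper quartiles as bars. Right, median width per library (points) and group mean (black line) for shared regions at coding starts, inside coding genes and outside genes; the treated points lie below the untreated ones in each place.

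Around gene starts both edges of the peak lay closer to the start after oxamate. At 7173 coding starts that lay inside a peak of each of the 6 libraries, the upstream edge of the peak lay at a median of 432, 427 and 374 bp from the start in untreated and 321, 355 and 352 bp in treated libraries. The downstream edge lay at 414, 414 and 309 bp in untreated and 233, 273 and 277 bp in treated libraries. Group means fell from 411 to 343 bp upstream, a change of −16.6%, and from 379 to 261 bp downstream, a change of −31.1%, with no overlap on either side (exact permutation p = 0.1 for each). Divided by the smallest width of each list, the downstream difference kept the groups apart (exact permutation p = 0.1) and the upstream one did not (exact permutation p = 0.3). The difference between the sides was not tested.

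**Figure D4:**
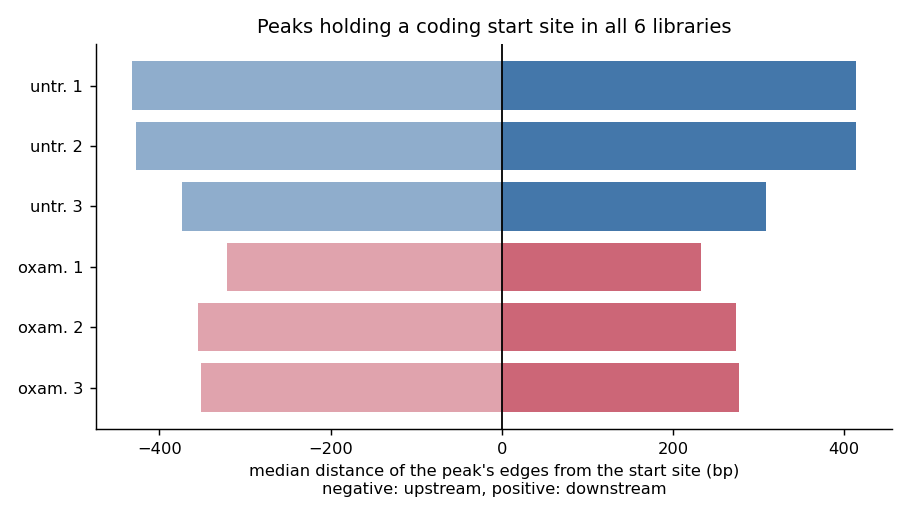
Median distance (bp) from the start site to the upstream (negative) and downstream (positive) edge of the peak that holds it, over 7173 coding starts, 1 bar for each of the 3 untreated (untr.) and 3 treated (oxam.) libraries. Downstream edges lie at 233 to 277 bp in treated and 309 to 414 bp in untreated libraries.

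Among 3188 shared regions at a coding gene end that averaged at least 1 kb in untreated libraries, 1295 were narrower in each treated library and 4 were wider. This filter used the untreated widths alone, which favours a fall in the treated ones. Without it, 28.6% of all 26012 shared regions were narrower and 0.803% wider. In the upper quartile by mean width over the 6 libraries, 33.2% were narrower and 0.369% wider. The lowest ratio of the 3188 was at TBX2, a T-box factor. Its region had 1573, 1719 and 861 bp in untreated and 101, 357 and 236 bp in treated libraries. PLIN2, which encodes a lipid droplet coat protein, fell from 1157, 1414 and 1186 bp to 121, 258 and 311 bp in the region over its start. SMAD1, a BMP signal transducer gene, fell from 1383, 1296 and 931 bp to 96, 253 and 374 bp. Further regions with low ratios were at BCL11A, TUBA1C, ARHGDIA and MYEOV. At BCL11A the treated peaks of the region lay over 1 kb from the gene end. That gene is therefore also among those left without an end peak in any treated library. The ratio of treated to untreated width was 0.154 at TBX2 and 0.171 to 0.206 at the other 6 named here. In those 6 the folds of treated and untreated libraries overlapped, as at PLIN2 with 4.13, 3.91 and 3.59 in untreated and 3.63, 3.50 and 3.91 in treated libraries. At TBX2 they did not, with 4.06, 3.76 and 3.48 in untreated and 3.37, 3.12 and 3.43 in treated libraries. The 4 wider regions were at TAPBPL, ST7, NDUFB2 and DCT, with a ratio of 1.14 at TAPBPL, the highest of the 4. At NDUFB2, a complex I subunit gene, widths were 1065, 1070 and 970 bp in untreated and 1179, 1128 and 1138 bp in treated libraries. Its folds were lower in each treated library, at 6.22, 6.07 and 6.88 against 8.34, 8.17 and 7.68, and all 4 wider regions showed this.

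In the pathway lists the widest shared region at an end of each gene was compared. Over all 9606 coding genes with such a region, 32.4% were narrower in each treated library and the median change was −20.5%. Of 15 glycolysis and glucose import genes 8 were narrower in each treated library, and the median change was −28.6%. HK2, the hexokinase 2 gene, had 1253, 694 and 639 bp in untreated and 369, 197 and 567 bp in treated libraries. PKM, the pyruvate kinase gene, had 1522, 1486 and 1160 bp against 900, 932 and 894 bp. In contrast GAPDH overlapped, at 1751, 2141 and 1936 bp against 1614, 2335 and 2089 bp, as did the glucose transporter gene SLC2A1. BSG, the chaperone of lactate transporters, had 1677, 1766 and 1403 bp against 809, 1302 and 767 bp, whereas SLC16A1 overlapped.

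Other lists ranged on both sides of the background. Mesenchymal genes were narrower in 6 of 9, among them VIM with 1539, 1560 and 1480 bp against 1123, 1253 and 1077 bp and LOX, the lysyl oxidase gene, with 1503, 1136 and 1059 bp against 399, 417 and 625 bp. The MYC network was narrower in 7 of 13 and chromatin architecture genes in 9 of 18, with RAD21 of the cohesin complex at 887, 872 and 570 bp against 234, 284 and 326 bp. The list of extracellular matrix and integrin genes was narrower in 5 of 12. Of its integrin genes, ITGB1, ITGA6, ITGA5 and ITGB5 were narrower in each treated library, and ITGB1 had 1280, 1175 and 1259 bp against 442, 634 and 563 bp. ITGA3, ITGAV and ITGB3 overlapped, and ITGA3 had 1430, 1474 and 1520 bp against 969, 1339 and 1936 bp. The integrated stress response and AMPK lists had 3 of 14 each and a median change of −11.7% and −10.4%, and Wnt signalling had 3 of 16. No list was tested.

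The resistant libraries, which had no part in the rule, had a peak in over 50% of the lost regions each. A peak overlapped 79.0%, 60.1% and 71.2% of the 1695 lost regions in untreated resistant and 77.9%, 54.1% and 73.9% in treated resistant libraries. The treated and untreated values overlapped, and the difference of −1.47 percentage points was within their spread (two-sided exact permutation p = 0.9). Its sign turned without untreated resistant library 1, to 2.98 points, and without treated resistant library 2, to 5.78 points. All 6 resistant libraries had a peak in 488 lost regions (28.8%) and none in 77 (4.54%). Of the gained regions, 18.0%, 32.7% and 12.2% had a peak in untreated and 13.7%, 14.6% and 10.2% in treated resistant libraries (exact permutation p = 0.3), and 97 of 205 had none in any. For comparison, shared regions had a peak in 97.6% to 98.4%.

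**Figure D5:**
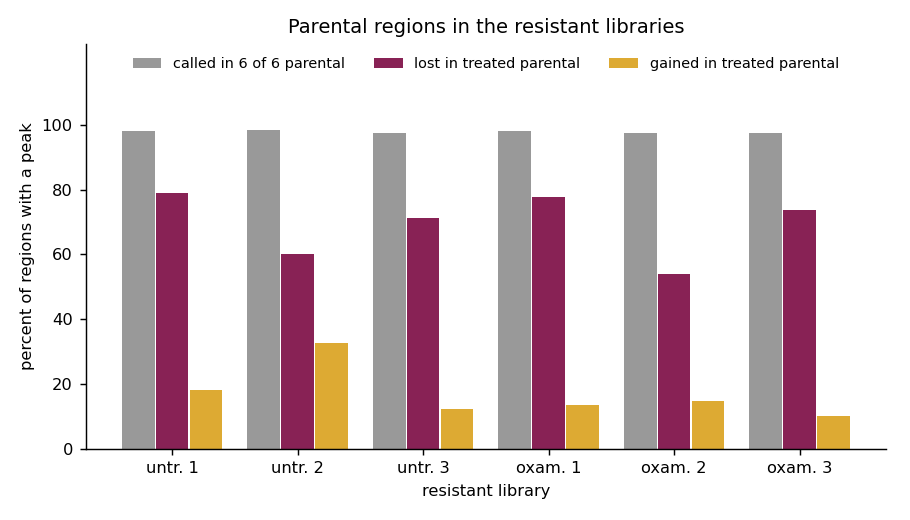
Percent of parental regions overlapped by a peak in each of the 6 resistant libraries (untr. untreated, oxam. treated), for regions shared by all 6 parental libraries, lost in treated parental cells and gained in treated parental cells. Lost regions were covered to 54.1% to 79.0% and gained regions to 10.2% to 32.7%, with no separation of treated from untreated resistant libraries.

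The same rule applied inside the resistant cells gave 282 lost and 242 gained regions, which is 0.779% of the regions called in 3 of 3 untreated and 0.680% of those called in 3 of 3 treated libraries, beside 4.70% and 0.741% in parental cells. The change in width was set against that in resistant cells over 24148 regions called in all 12 libraries. It was −161 bp in parental and −41.7 bp in resistant cells, a difference of −119 bp that did not pass the test (two-sided exact permutation p = 0.25 over 400 assignments, adjusted p = 0.312). Resistant lists had larger smallest widths, 94 to 124 bp. With widths divided by the smallest width of each list, the change was −1.23 in parental and −0.111 in resistant cells, a difference of −1.11 (exact permutation p = 0.105). On the log2 scale the difference was −0.37 (exact permutation p = 0.18), so neither scale passed the test.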

How the data were processed

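ATAC-seq reads of each library were aligned by the authors to hg38 (Bowtie2 2.1.0 and MACS2, whose version is not given in the sources used here, per the submitters' processing notes), and broad peaks were called per library without pooling. Each deposited list holds the authors' score, their fold over background (a ratio) and −log10 p and −log10 q values; the smallest deposited −log10 q was 1.00. Read counts are not in the lists, so presence and width of peaks were compared and depth is known only as a relative value. It was derived by solving a Poisson background for the fold and −log10 p values that recur together most often, taking the smallest width as fragment length. The comparisons kept the autosomes and chromosome X and dropped 3796 of 348388 peaks (1.09%).

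Regions were placed by RefSeq genes (GRCh38.p14, 59094 genes, 19970 coding, of which 15811 have a start and strand in the promoter table). A gene end is either border of a gene. Groups were compared by two-sided exact permutation over libraries (20 assignments), with Benjamini-Hochberg adjustment over 15 tests. Python 3.11.15, numpy 2.4.6, pandas 2.3.3 and scipy 1.17.1 were used, and scripts were tested on simulated data. Intervals are exact (Clopper-Pearson, 95%) and cover counting error only. Named genes followed a rule of best median rank by −log10 q (10 lost regions at coding ends, 10 inside and 3 outside genes, up to 5, 5 and 3 gained), the 8 genes with most lost regions, the 5 largest clusters, every listed gene with a changed end, and the 8 and 4 largest width changes, of which 1 is not reported here. Stricter peaks, equal list lengths, other overlaps, windows, distances and leaving out each library were tried as alternatives. The members, gene lists and rules were chosen with earlier results of these data known. Same-numbered libraries did not deviate together in log2 width (correlations of −0.0114, 0.0115 and −0.0104), so the replicate number was not used as a block in the main tests.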

Additional observations from a re-analysis of the deposited data

Results flagged for a closer look

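Peaks on unplaced and unlocalised contigs, which were left out of the merged regions, made up 1.15%, 1.07% and 1.13% of the peaks in treated parental libraries and 0.707%, 0.621% and 0.810% in untreated ones. They drew attention because they lie outside the main measurement and stood above the level of the untreated libraries. The mean was 1.12% against 0.713% with no overlap (two-sided exact permutation p = 0.1, the lowest possible in this design, adjusted p = 0.188). In resistant libraries the share was 0.479% to 0.791%, with treated and untreated libraries overlapping.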

How the results depend on the processing

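Presence of a peak is a yes or no call at the authors' threshold, and the lists hold no read counts, so small falls in signal and absence cannot be told apart. The count of lost regions was 1695, and it became 2703 when peaks had to cover at least 50% of a region and 886 in 1-kb windows. The count of gained regions was 205, and it became 89 with −log10 q of at least 3 and 11 in 1-kb windows. With −log10 q of at least 3 the lists gave 1903 lost regions, of which 136 (7.15%) overlapped the 1695. With each list cut to its 45748 best peaks, 853 of 1146 (74.4%) did. The share of lost regions at a gene end was 44.0% at 5 kb, 12.6% for coding genes only and 28.7% with −log10 q of at least 3. For gained regions it was 15.1% at 5 kb and 1.46% for coding genes only. Clusters held 4 regions at 50 kb and 90 at 200 kb, against 35. Leaving out each library gave 297 to 1065 gained and 2380 to 3835 lost regions, 87 to 424 lost regions in clusters, 17.8% to 20.3% of lost and 4.85% to 8.73% of gained regions at a gene end. With a library left out the rule asks for agreement of fewer libraries, which by itself tends to raise the counts. The lost count moved by over 1.5 times without untreated library 1 (3027), 2 (2711) or 3 (3835) or treated library 2 (3564), and the gained count most without treated library 1 (1065).

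The settings for single shared regions and for the extents around starts, and leaving out libraries for the shares, clusters and resistant comparisons, were added after seeing the data. Relative to the library median 1582 shared regions were narrower and 4264 wider, and relative to the smallest width 3725 and 640, against 7448 and 209. Leaving out each library, which again asks for agreement of fewer libraries, gave 8432 to 13262 narrower and 356 to 739 wider regions.

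Width, covered bases, fold and the extents around starts kept their direction under all alternatives run, and none could pass 0.05. Without 1 library the width difference lay between −176 and −117 bp, covered bases between −8.10 and −4.90 Mb, fold between −1.15 and −0.810, and the extents between −86.8 and −56.7 bp upstream and between −153 and −99.8 bp downstream. The difference from resistant cells lay between −162 and −88.5 bp. The share of lost regions in resistant libraries lay between −6.49 and 5.78 points, with a sign change without untreated resistant library 1 (2.98) and without treated resistant library 2 (5.78). With the replicate block (number as pair) the width difference of −143 bp had an exact permutation p of 0.25, the smallest that 3 pairs allow, as did covered bases, fold and both extents; the resistant share had an exact permutation p of 0.75, and the block changed no call.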
